A study of Mus musculus with 6 samples.

Results

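Gvin1 and 7 further genes of the interferon-inducible GTPase families were followed in sorted bone marrow long-lived plasma cells of young and old mice. The 8 genes are Gvin1 (a very large inducible GTPase), Gbp2, Gbp3 and Gbp7 (guanylate-binding proteins), Irgm1 and Igtp (immunity-related GTPases) and Mx1 and Mx2 (dynamin-like GTPases). They were picked by gene symbol with their young and old values already known, so the differences between the groups given for them below are descriptions and carry no test. Of the 8, 7 had values among the 13642 genes of the table, and Mx2 is not analysed here. The 6 genes Gvin1, Gbp2, Gbp3, Gbp7, Irgm1 and Igtp had a mean of at least 1 FPKM (fragment counts scaled by gene length and library size), while Mx1, with a mean of 0.812 FPKM, fell under that minimum.

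RNA was sequenced from 3 young and 3 old libraries of long-lived plasma cells, the antibody-secreting cells that persist in the marrow for long periods without dividing. Young libraries came from female C57BL/6J mice aged 2 to 3 months, supplied by the Jackson Laboratory or by UCLA, and old libraries from male C57BL/6J mice aged 17 to 19 months, supplied by the National Institute on Aging colony. No treatment or engineered allele was named for either group. Cells were sorted as CD138 high and negative for B220, IgD, T cell receptor beta and gamma delta, CD11b and Gr-1. Age, sex and supplier changed together and cannot be told apart. The series speaks of independent groups of mice, but whether a library pooled several animals was not stated, so the spread between libraries may be partly technical.

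Interferons bind cell surface receptors and act through Janus kinases and STAT transcription factors. Type II interferon acts mainly through GAS elements, and type I interferon mainly through interferon-stimulated response elements (ISRE), which a complex holding STAT2 and IRF9 binds. Among the genes induced are large GTPases that act inside the cell: guanylate-binding proteins gather on vacuoles and microbes, immunity-related GTPases act on vacuoles that hold parasites or bacteria, and Mx proteins act on viruses. Irgm1, Igtp and Irgm2 are regulators that hold other immunity-related GTPases inactive on the cell's own membranes.

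Gvin1 has a close copy on the same chromosome, Gm4070, and the bases by which they differ decide how far reads can be assigned to either gene. Gvin1 lies at chr7:106156556-106215326 and Gm4070 at chr7:105895139-105953967 of GRCm38, both on the minus strand. In GENCODE M21 the transcripts Gvin1-201 and Gm4070-201 are each 8795 bases long, with 2 exons and the whole coding sequence of 7281 bases in a single exon. They differ at 3 bases and are 99.966% identical. Counted from the 5′ end of the transcript, with the base of Gvin1-201 before and that of Gm4070-201 after the position, the differences are G1895T, G4994A and C7165T, all of them in the coding exon. The 61 bases around each difference are shown for both genes because these are the stretches that tell the copies apart, with the differing base in capitals.
Gvin1, chr7:106163426-106163486, minus strand: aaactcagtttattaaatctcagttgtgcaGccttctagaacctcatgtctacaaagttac
Gm4070, chr7:105902009-105902069, minus strand: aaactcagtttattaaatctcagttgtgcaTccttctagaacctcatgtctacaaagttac
Gvin1, chr7:106160327-106160387, minus strand: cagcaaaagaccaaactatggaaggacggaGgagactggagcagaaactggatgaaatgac
Gm4070, chr7:105898910-105898970, minus strand: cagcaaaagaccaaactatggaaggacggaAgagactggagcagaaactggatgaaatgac
Gvin1, chr7:106158156-106158216, minus strand: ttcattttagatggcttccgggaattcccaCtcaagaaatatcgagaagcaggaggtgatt
Gm4070, chr7:105896739-105896799, minus strand: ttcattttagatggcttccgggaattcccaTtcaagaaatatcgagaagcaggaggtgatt

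Windows of 150 bases, the read length given in the labels, were compared across all annotated transcripts. Of 8942 different windows in Gvin1 transcripts, 96.2% were also found in another gene, mainly Gm4070, and 340 were found in Gvin1 alone. On Gvin1-201 these windows lie in 3 stretches, bases 1746 to 2044, 4845 to 5033 and 7016 to 7314, and make up 3.93% of its windows. The other members were far easier to tell apart: no window of Gbp2, Gbp3, Irgm1 or Mx1 was shared with another gene, 0.739% of the windows of Igtp were shared with Irgm2, and 8.77% of those of Gbp7 with Gm43802. How reads that match both copies were counted is not given in the sources used here.

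**Figure D1:**
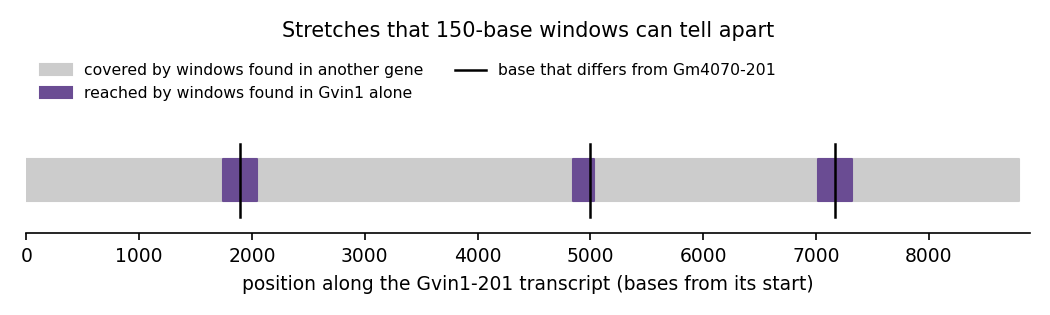
The Gvin1-201 transcript, drawn by position in bases from its start. Purple marks the 3 stretches reached by 150-base windows found in Gvin1 alone, grey the rest, and vertical lines the 3 bases that differ from Gm4070-201.

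The promoters of the guanylate-binding and immunity-related members were searched for interferon elements. These members were chosen as interferon-inducible, so the presence of such an element is in part fixed by that choice and is given as a description. RefSeq promoter windows (250 bases before to 50 after the annotated start, GRCm38.p6) were found for 5 members, Gbp2, Gbp3, Gbp7, Irgm1 and Igtp, and not for Gvin1, Mx1 or Mx2. The ISRE was searched as TTTC, any 2 bases and TTTC, or as its reverse complement, GAAA, any 2 bases and GAAA. It was present in 5 of these 5 genes, in 3.99% of the 27025 genes with a promoter entry and in 3.44% of the 32851 promoter windows of this length. Gbp3 has 2 such windows, and the second, at chr3:142560106-142560405, held no match. In the members the ISRE lay between 24 and 59 bases before the annotated start. In Gbp3 and in Irgm1 a second match overlapped the first. The 30 bases around the matches are shown because they are the letters these members have in common, with the matches in capitals.
Gbp2, chr3:142620594-142620623, plus strand: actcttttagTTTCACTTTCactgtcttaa
Gbp3, chr3:142559992-142560021, plus strand: gacacagTTTCAGTTTCTATTTCccagatc
Gbp7, chr3:142530273-142530302, plus strand: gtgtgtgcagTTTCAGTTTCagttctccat
Irgm1, chr11:48871428-48871457, minus strand: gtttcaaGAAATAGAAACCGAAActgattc
Igtp, chr11:58199512-58199541, plus strand: tctaggaactGAAACTGAAAgctgttcggg

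A GAS motif, TTCNNNGAA, which reads the same on both strands, was present in the windows of Gbp7 and Igtp and in 8.3% of all windows. Among other interferon-inducible GTPases the ISRE was present in 6 of 10 genes with a promoter entry, among interferon-stimulated genes of other kinds in 22 of 51, and among interferon receptors and signalling genes in 3 of 21. A match describes letters in a window and was not measured as binding.

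By the steps of the lowest values, young libraries held about 24.5, 25.4 and 22.6 M reads and old libraries 27.0, 28.2 and 27.5 M. Every old library was deeper than every young one by this estimate. Genes above 0 numbered 8934 to 10664 in young against 11310 to 12049 in old libraries. All 9 plasma cell markers were detected, with summed levels of 19778 to 23134 FPKM in young libraries and of 22522, 22791 and 8959 FPKM in old replicates 1, 2 and 3. Summed markers of other cells overlapped between the groups: monocyte and macrophage genes were 96.8 to 368 FPKM in young and 212 to 712 in old libraries, neutrophil genes 434 to 562 and 263 to 1259, B cell genes 1478 to 1740 and 1157 to 1568, dendritic cell genes 45.6 to 288 and 95.2 to 189, T and NK cell genes 13.4 to 47.2 and 21.1 to 61.5, erythroid genes 0.336 to 296 and 46.8 to 848, megakaryocyte genes 0.16 to 12.3 and 4.45 to 46.6, and stromal and endothelial genes 8.36 to 18.9 and 13.2 to 16.1. Of these markers, Fcgr1 and Vpreb1 were under 0.1 FPKM in all 6 libraries. The B cell sum was mostly Cd74, at 1298.4 to 1495.8 FPKM in young and 1027.6 to 1385.2 FPKM in old libraries. The dendritic cell sum of young replicate 3, 288 FPKM, held 200 FPKM of Bst2, which is also an interferon-stimulated gene. Overlap of these sums therefore says little on the other markers in them. Median log2 changes were 1.2 over neutrophil, 0.84 over monocyte and macrophage, 0.82 over dendritic cell, 1.24 over erythroid, 1.12 over megakaryocyte, 0.42 over T and NK cell, 0.44 over stromal and endothelial, -0.19 over B cell and -0.41 over plasma cell markers, against 0.23 over all genes tested. Leaving out single libraries gave 0.19 to 1.2 for neutrophil, 0.11 to 1.55 for monocyte and macrophage and -0.05 to 1.01 for dendritic cell markers. The ranges were -0.11 to 1.99 for erythroid, 0.0 to 1.67 for megakaryocyte and -0.37 to 1.19 for T and NK cell markers. They were 0.17 to 0.81 for stromal and endothelial, -0.43 to 0.01 for B cell and -0.6 to -0.02 for plasma cell markers. Single markers could differ where their sums overlapped: Lyz2, Elane, Ms4a1, Prf1, Cox6a2 and Xcr1 were higher in every old than in every young library, and Pax5 and Ccr9 lower. These are 11.3% and 3.77% of the 53 markers of other cells that were tested, against 8.78% and 3.42% of all genes tested. Of the 9 plasma cell markers, 1 had a positive and 8 a negative log2 change (11.1% positive, against 61.3% of all genes tested). Among them Cd28 was lower in every old than in every young library, as were 3.42% of all genes tested. The part of other cells in the member levels was not tested. In sorted bulk RNA, fewer cells that express a gene and less RNA per cell cannot be told apart.

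Gvin1 was the most abundant member per length of gene and stood higher in every old than in every young library. Its levels were 73.1, 19.9 and 112 FPKM in young replicates 1, 2 and 3 and 1075.3, 369 and 327 FPKM in old replicates 1, 2 and 3. The lowest old library was 2.92 times the highest young library. Young libraries averaged 68.4 ± 46.3 FPKM and old libraries 590.4 ± 420.4 FPKM (SD, n = 3 each), an 8.63-fold ratio of means. The log2 change, old minus young on log2(FPKM + 1), was 3.18 ± 0.63 (SE). Among all genes of a library Gvin1 ranked 606, 2885 and 405 in young and 19, 86 and 93 in old libraries. By the estimated depth, about 4550 to 261000 reads stood behind these values, so counting error was small beside the spread between libraries. This does not cover error in assigning reads to Gvin1. Windows found in Gvin1 alone make up 3.93% of those of Gvin1-201, and how shared reads were assigned is not given.

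The size of the Gvin1 difference rested on single libraries at each end. Without old replicate 1, the highest, the ratio of means was 5.09, and without young replicate 2, the lowest, it was 6.37. Groups without overlap stay apart whichever library is left out, so nothing is read from that. The log2 change ranged from 2.47 to 3.69 when single libraries were left out. In old replicate 1 summed markers were 263 FPKM for neutrophils, the lowest of the 6 libraries, 212 FPKM for monocytes and macrophages, 189 FPKM for dendritic cells, the highest of the old libraries, 1563 FPKM for B cells and 22522 FPKM for plasma cells. Of the 6 markers of other cells that were higher in every old library, 3 had their highest level there. These were Cox6a2 (119 FPKM), Ms4a1 (25.3 FPKM) and Xcr1 (5.55 FPKM), while Lyz2, at 179 FPKM, was lowest of the old libraries there. Markers outside these 6 went both ways. Cdh5 (3.52 FPKM) and Cd3d (1.89 FPKM) were also highest there. Cd22 (0.419 FPKM) and Bst2 (27.8 FPKM) were at their lowest of the old libraries, and Clec9a was listed at 0. The part of these cells in the Gvin1 level of that library was not tested. Every old library lay above every young one in 8.78% of the genes tested.

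**Figure D2:**
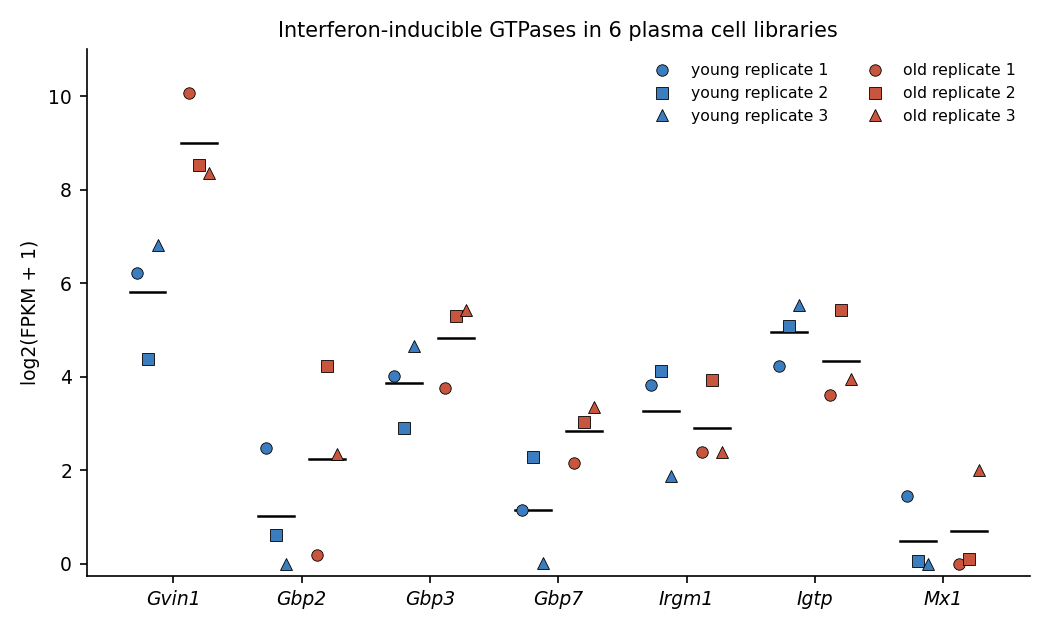
Levels of the 7 members with values in each library, as log2(FPKM + 1). Points are libraries, coloured by group and shaped by replicate number, and bars are group means. Gvin1 is the member whose old points all lie above its young points, as in 8.78% of all genes tested.

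The copy Gm4070 was about as abundant as Gvin1, and its log2 change was smaller. Its levels were 107, 495 and 96.9 FPKM in young and 645, 500 and 300 FPKM in old libraries. Young replicate 2 was as high as old replicate 2, so the groups overlapped. The log2 change of Gm4070 was 1.41 ± 0.58 (SE), with a limma unadjusted p of 0.0344 and an adjusted p of 0.839 over all genes. Without young replicate 2 it was 2.16, and without young replicate 3 it was 0.99.

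Young replicate 2 was also the library in which reads were assigned least to Gvin1. The Gvin1 row held 40.7, 3.87 and 53.6% of the summed level of the copies in young libraries and 62.5, 42.5 and 52.2% in old libraries. In young replicate 2 the low level of Gvin1, 19.9 FPKM, thus stood beside the highest young level of Gm4070, 495 FPKM. With 3 differing bases between the transcripts, the split is less certain than the sum.

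Summed over both copies, the difference was smaller than for Gvin1 alone and the groups still did not overlap. The sum was 179.7, 514.6 and 209.1 FPKM in young and 1721, 868.7 and 626.9 FPKM in old libraries, or 301.1 ± 185.4 and 1072 ± 574.5 FPKM (SD, n = 3 each). The ratio of means was 3.56, against 8.63 for Gvin1 alone, and the log2 change was 1.86 ± 0.47 (SE), against 3.18. The lowest old library was 1.22 times the highest young library. Without young replicate 2 the ratio of means rose to 5.51, and without old replicate 1 it was 2.48. This sum was formed after the values had been seen. Among all genes tested, 8.78% had every old library above every young one.

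**Figure D3:**
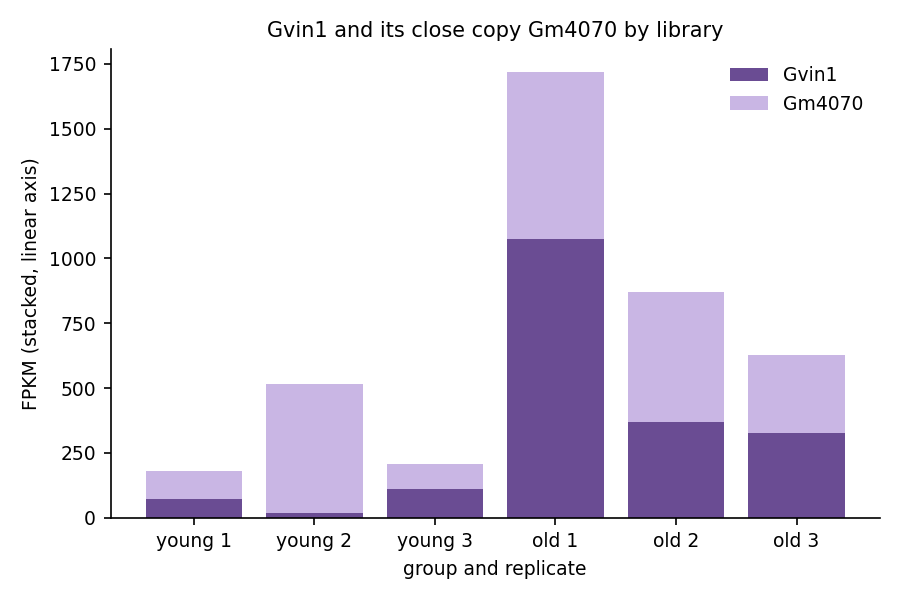
Stacked FPKM of Gvin1 (dark) and Gm4070 (light) in each library, on a linear axis from 0. The total is highest in old replicate 1, and in young replicate 2 nearly all of it is Gm4070.

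The guanylate-binding members Gbp2, Gbp3 and Gbp7 lie in one region of chromosome 3, on the plus strand. Their positions are 142620602 to 142638008, 142560026 to 142573209 and 142530342 to 142550149 of GRCm38. The region also holds Gbp5, at 142493978 to 142522344 on the same strand, with a log2 change of -0.46 ± 0.64 (SE). Gbp2, Gbp3 and Gbp7 all had a positive log2 change with overlapping groups. Gbp3 was the most abundant of them, at 15.3, 6.53 and 24.1 FPKM in young and 12.6, 38.6 and 41.9 FPKM in old libraries. Old replicates 2 and 3 lay above all young libraries, while old replicate 1 lay below young replicates 1 and 3. Young libraries averaged 15.3 ± 8.77 FPKM and old libraries 31.1 ± 16.0 FPKM (SD, n = 3 each), with a log2 change of 0.97 ± 0.64 (SE). It was 0.49 without young replicate 2 and 1.5 without old replicate 1.

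Gbp7 was at 1.21, 3.89 and 0.00911 FPKM in young and 3.43, 7.14 and 9.29 FPKM in old libraries. The value of young replicate 3 corresponds to about 1.16 reads, and young replicate 2 lay above old replicate 1. Its log2 change was 1.70 ± 0.91 (SE), 2.90 with a pseudocount of 0.1 in place of 1, and 1.13 without young replicate 3. Gbp2 was at 4.57 and 0.541 FPKM in young replicates 1 and 2 and was listed at 0 in young replicate 3. In old libraries it was at 0.139, 17.7 and 4.07 FPKM, so a single old library, replicate 2, stood above every young one. The log2 change of Gbp2 was 1.22 ± 1.17 (SE) and fell to 0.23 without that library.

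The other guanylate-binding proteins had log2 changes near or below 0, and their difference from Gbp2, Gbp3 and Gbp7 was not tested. Gbp5 was at 18.3, 11.4 and 6.53 FPKM in young and 8.10, 9.76 and 6.05 FPKM in old libraries, and Gbp9 at 12.9, 29.0 and 32.6 against 15.9, 16.5 and 16.4 FPKM. Their log2 changes were -0.46 ± 0.64 and -0.48 ± 0.51 (SE) and ranged from -0.81 to -0.13 and from -0.88 to -0.24 when single libraries were left out. Gbp4, Gbp6, Gbp8 and Gbp10 had changes between -0.90 and 0.09, and the sign of each turned when some library was left out. Summed over 9 guanylate-binding proteins, levels were 67.7, 103 and 109 FPKM in young and 53.8, 124 and 92.1 FPKM in old libraries, with means of 93.2 ± 22.3 and 89.9 ± 35.2 FPKM (SD, n = 3 each).

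Irgm1 and Igtp, the regulatory immunity-related GTPases among the members, had negative log2 changes with overlapping groups. Irgm1, at chr11:48861968-48871683 on the minus strand, was at 13.1, 16.4 and 2.66 FPKM in young and 4.23, 14.2 and 4.24 FPKM in old libraries. Young replicate 3 and old replicates 1 and 3 were low, and the other 3 libraries were high, in either group. The means were 10.7 ± 7.19 and 7.56 ± 5.76 FPKM (SD, n = 3 each). The log2 change was -0.37 ± 0.84 (SE) and turned to 0.06 without young replicate 2.

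Igtp, at chr11:58199556-58207591 on the plus strand, was at 17.7, 33.1 and 45.4 FPKM in young and 11.3, 42.3 and 14.6 FPKM in old libraries. Old replicates 1 and 3 lay below all young libraries, and old replicate 2 lay near the highest. The means were 32.1 ± 13.9 and 22.7 ± 17.0 FPKM (SD, n = 3 each), and the log2 change was -0.61 ± 0.59 (SE). It was -1.16 without old replicate 2, -0.25 without old replicate 1 and -0.14 with array weights, which weight libraries by their fit.

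Irgm2, the third regulator, was at 9.59, 17.0 and 22.7 FPKM in young and 4.53, 7.32 and 2.77 FPKM in old libraries, without overlap. Every old library lay below every young one in 3.42% of the genes tested. The log2 change of Irgm2 was -1.57 ± 0.67 (SE), with a limma unadjusted p of 0.041 and an adjusted p of 0.839, and it did not pass the test. The annotated loci of Igtp and Irgm2 overlap on the same strand, from 58199618 to 58207591, so the values of both genes are uncertain to the extent that reads there were counted for either.

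Mx1, at chr16:97447035-97462907 on the minus strand, was low, at 3.03 FPKM or less in every library. It was at 1.72 and 0.0397 FPKM in young replicates 1 and 2 and at 0.0805 and 3.03 FPKM in old replicates 2 and 3, and was listed at 0 in young replicate 3 and old replicate 1. The 1.72 and 3.03 FPKM correspond to about 159 and 316 reads, and the 0.0397 and 0.0805 FPKM to about 3.82 and 8.59 reads. RefSeq lists Mx1 and Mx2 of this assembly as transcribed pseudogenes.

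The library with the most Gvin1 held the least of the other members. In old replicate 1 Gbp2, Gbp3, Gbp7, Irgm1, Igtp and Mx1 were each at their lowest level of the old libraries, although for Irgm1 by only 4.23 against 4.24 FPKM. Summed without Gvin1, the members were at 53.7, 60.6 and 72.1 FPKM in young and 31.7, 120.0 and 77.1 FPKM in old libraries, and the old range enclosed the young one. Gvin1 made up 57.7, 24.7 and 60.9% of the summed member level in young and 97.1, 75.5 and 80.9% in old libraries.

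By mean level over the 6 libraries the members ranked as Gvin1 (329 FPKM), Igtp (27.4 FPKM), Gbp3 (23.2 FPKM), Irgm1 (9.15 FPKM), Gbp2 (4.50 FPKM), Gbp7 (4.16 FPKM) and Mx1 (0.812 FPKM). Gvin1 was the highest in 5 libraries and was below Igtp in young replicate 2. Every pair of neighbours in this order changed places in at least 1 library, and differences between neighbours were not tested. The ranges of Gvin1 and Igtp, 19.9 to 1075.3 and 11.3 to 45.4 FPKM, overlapped through young replicate 2.

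Over all genes limma, on log2(FPKM + 1) with Benjamini-Hochberg adjustment, called 0 of 10687 genes at an adjusted p under 0.05 (0.0%), and 632 had an unadjusted p under 0.05. Of the 6 members tested 0 were called. Of the 6 members, 1 had an unadjusted p under 0.05 with a higher old level, against 4.66% of all genes in that direction, and 0 had a lower one, against 1.25%. Because the members were chosen on this contrast, nothing is read from these counts. The median log2 change was 1.09 over the 6 members and 0.23 over all genes tested, the latter falling to 0.14 under median-ratio scaling and to -0.01 under quantile normalization.

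The other interferon-inducible GTPases showed no common direction. Of 31 listed, 20 had values and 16 were tested, of which 9 had a positive and 7 a negative log2 change (56.2% positive, against 61.3% of all genes tested), with a median of 0.06. None of the 16 was called by limma. At an unadjusted p under 0.05, 1 was higher and 1 lower in old libraries, Gm4070 and Irgm2. Of all genes tested, 4.66% were higher and 1.25% lower at that limit. Tgtp2, an effector GTPase, was at 69.2, 0.315 and 0.142 FPKM in young and 8.31, 78.8 and 135 FPKM in old libraries, and its log2 change of 3.30 ± 1.52 (SE) had a limma adjusted p of 0.839. Leaving out young replicate 3 gave a change of 2.28, and leaving out young replicate 1 gave 5.25. Tgtp1, which shares 62.5% of its windows with Tgtp2, was listed at 0 in 4 libraries. Ifi47 averaged 14.1 ± 15.2 FPKM in young and 4.09 ± 4.38 FPKM in old libraries (SD, n = 3 each), with overlap. The neighbouring copies 9930111J21Rik1 and 9930111J21Rik2 were abundant and steady, with a sum of 298.1, 298.8 and 273.7 FPKM in young and 318.8, 245.0 and 243.1 FPKM in old libraries. Iigp1, Irgc1, Gm4951 and F830016B08Rik were at most 0.597 FPKM in any library.

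**Figure D4:**
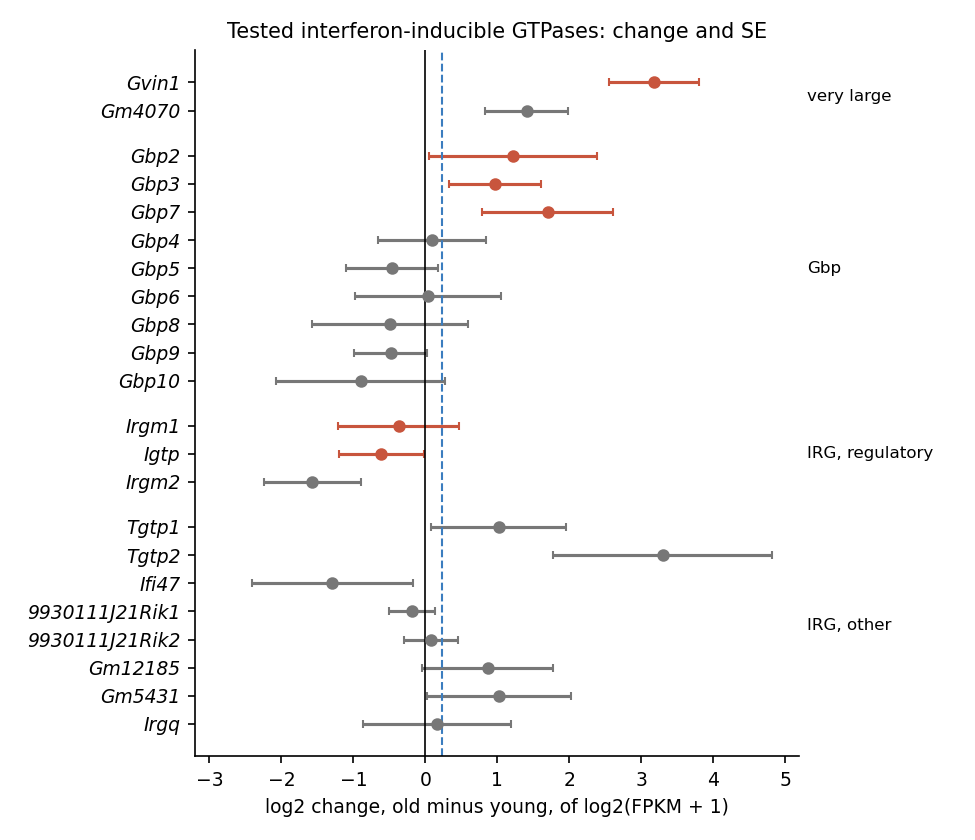
Log2 change (old minus young, of log2(FPKM + 1)) with its SE for the 22 interferon-inducible GTPases tested, members in red and others in grey, grouped by family. The solid line is 0 and the dashed line the median of all genes tested, 0.23. Gvin1, at 3.18, and Tgtp2, at 3.30 with a wider SE and 2.28 to 5.25 when single libraries are left out, lie farthest to the right.

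Of the 26 receptor and signalling genes with values, 23 were tested, and the 9 described here were above 0 in every library. Irf1, a transcription factor induced by type II interferon, was at 24.0, 49.1 and 25.5 FPKM in young and 31.3, 27.3 and 14.6 FPKM in old libraries. Its log2 change was -0.40 ± 0.49 (SE), with overlapping groups. The type II receptor chains Ifngr1 and Ifngr2 had changes of 0.52 ± 0.80 and -0.46 ± 1.04 (SE), and the kinases Jak1 and Jak2 of -0.03 ± 0.37 and 0.06 ± 0.57. The type I receptor chain Ifnar2 was at 8.97, 1.25 and 6.89 FPKM in young and 10.1, 21.7 and 43.7 FPKM in old libraries, without overlap. Every old library lay above every young one in 1 of the 23 genes tested here and in 8.78% of all genes tested. The log2 change of Ifnar2, 1.99 ± 0.79 (SE), did not pass limma's test (adjusted p = 0.829). Its partner Ifnar1 had a change of 0.03 ± 0.49, and Stat2 and Irf9 of 0.39 ± 0.49 and -0.71 ± 0.69 (SE). The signs for Ifngr1, Ifngr2, Jak1, Jak2 and Ifnar1 turned when some library was left out. The type III receptor chain Ifnlr1 was at most 0.919 FPKM in old libraries, and every young library listed it at 0.

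**Figure D5:**
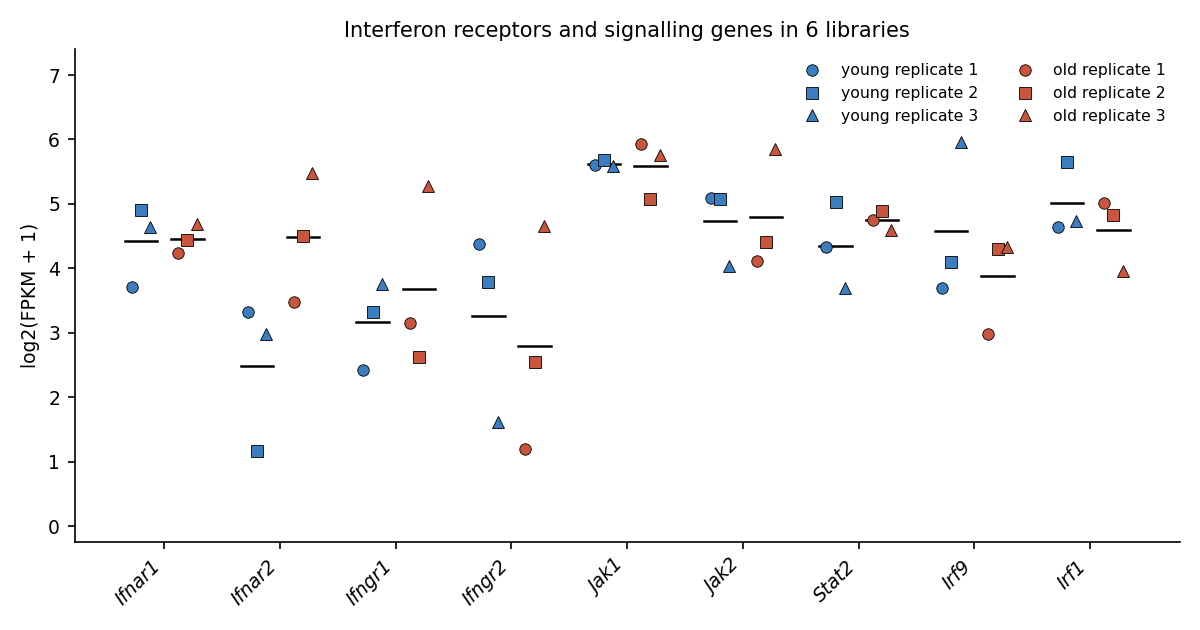
Levels of 9 interferon receptor and signalling genes in each library, as log2(FPKM + 1), drawn as for the members. The old points of Ifnar2 lie above its young points, as in 8.78% of all genes tested, and the groups of the other 8 genes overlap.

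None of the 23 tested receptor and signalling genes was called by limma, and their median log2 change was -0.03. At an unadjusted p under 0.05, 1 was higher and 0 lower, against 4.66% and 1.25% of all genes tested. The 15 interferon genes listed, Ifng among them, are not analysed here. Of 55 tested interferon-stimulated genes without a GTPase domain, 0 were called, with a median of 0.30. At an unadjusted p under 0.05, 2 were higher and 2 lower, beside the same 4.66% and 1.25% of all genes tested. Of the 55, 61.8% had a positive change, close to the 61.3% of all genes tested. The 2 higher genes were Ifi213, at 1.01, 0.621 and 0 against 15.7, 6.95 and 4.78 FPKM, and Ifitm2, a membrane protein that restricts viruses, which was listed at 0 in every young library and measured 5.40, 1.17 and 76.1 FPKM in old ones. The 2 lower genes were Adar, an RNA-editing enzyme, at 38.3, 39.5 and 58.3 against 8.66, 33.4 and 17.4 FPKM, and Nmi, a partner of STAT proteins, at 54.8 ± 27.2 against 21.7 ± 11.7 FPKM (SD, n = 3 each). The Ifitm2 level of old replicate 3 came from the library with the highest summed monocyte and macrophage markers, 712 FPKM, and the lowest summed plasma cell markers, whose part in it was not tested. In that library Gvin1, at 327 FPKM, was the lowest of the old group.

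Genes that handle GTPases after synthesis were measured for comparison. Prenylation adds the lipid by which several guanylate-binding proteins reach membranes, and of 12 tested genes of prenylation and GDP dissociation 0 were called, 10 had positive changes (83.3%, against 61.3% of all genes tested) and the median was 0.67. This difference was not tested. Rce1, which trims prenylated proteins, was at 5.53, 0 and 0 FPKM in young and 11.1, 6.68 and 7.94 FPKM in old libraries (log2 change 2.33 ± 0.97 SE, limma adjusted p = 0.839). With 2 young libraries at 0, this change depends on the pseudocount and was 4.47 with one of 0.1. The median of this list moved to 0.27 without young replicate 2 and to 1.31 without young replicate 3. The ubiquitin-like conjugation genes that help to place these GTPases on vacuoles had 0 of 16 called and a median of 0.08, and dynamin-family genes outside the interferon response 0 of 11 and a median of 0.37.

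The genes most like Gvin1 over the 6 libraries were not interferon-inducible GTPases. By Pearson's r on log2(FPKM + 1) over 6 libraries, and among 10686 genes compared, these were Zc3h4 (0.987), Ndor1 (0.984), Large2 (0.984), Acot2 (0.973) and Ahcyl1 (0.971). For Igtp they were Snrnp27 (0.993), 2310011J03Rik (0.990) and Dynll1 (0.983). The highest of so many values over 6 libraries are large by selection and are given as descriptions. Among the members, r was 0.53 for Gvin1 with Gbp3 and -0.47 for Gvin1 with Igtp over the same 6 libraries.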

How the data were processed

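Per the labels' protocols, libraries were made from 5 ng of total RNA with a stranded kit using template switching and removal of ribosomal cDNA, and read as paired ends of 150 bases. The deposited values are FPKM per gene, made by the authors. The builds GRCm38 and mm10 and the tools bcl2fastq 2.17, STAR and DESeq2 appear, with no role given, in the submitters' processing notes. The counter, annotation, use of strand and treatment of reads matching several genes are not given in the sources used here. FPKM values are not counts, so no count model was run. Depth was estimated from the low values in 2 steps. Relative depth was the scale at which most ratios to young replicate 1 were fractions of whole numbers from 1 to 5. Within 0.1%, 100.0% of the 16 to 44 ratios per library were such fractions. The relative depths were 1.036, 0.920, 1.101, 1.151 and 1.123. The absolute scale came from a second fit, in which only 8.2 to 12.4% of low values were whole read numbers. Read numbers are therefore approximate. Reads amplified from little RNA are not independent molecules, so read numbers cover counting error alone.

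Old and young libraries were compared on log2(FPKM + 1) by two-sided tests of limma (version 3.58.1, R 4.3.3), whose variance prior followed the mean level. The 10687 genes with a mean of at least 1 FPKM entered, and p-values were adjusted over all of them by Benjamini-Hochberg, with a threshold of 0.05. This scale understates changes of low genes. The script was tested on simulated data. Alternatives were a pseudocount of 0.1, no minimum or a minimum mean of 5 FPKM, median-ratio scaling, quantile normalization, array weights, a replicate block and leaving out each library. Summing close copies was added after the values had been seen. Of the gene identifiers, 99.9% matched GENCODE M21, used for coordinates and transcripts, and RefSeq gave promoters. Python 3.11.15, numpy 2.4.6, pandas 2.3.3 and matplotlib 3.10.9 were used.

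The members and gene lists were chosen with earlier results of these data known. The rule for named genes takes all members, the other interferon-inducible GTPases by value or range, up to 4 genes of smallest p of each other list, a set of interferon signalling genes, and the 5 and 3 genes most like Gvin1 and Igtp. Not every gene that this rule names is reported here, and lists outside the interferon response are given mainly by counts and medians.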

Additional observations from a re-analysis of the deposited data

How the results depend on the processing

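The count of genes called by limma was 0 in the fit as reported and 1 under quantile normalization and under array weights, in each case Hist1h3f, which is no member, and leaving out libraries gave 0 to 0. No gene of the member, pathway or signalling lists was called under any of the 13 other settings. The replicate block, with the replicate numbers from the titles, called 0 genes and left 571 with an unadjusted p under 0.05, against 632 without it. Deviations of same-numbered libraries correlated at -0.034, 0.020 and -0.004, so the numbers gave no sign of pairing and the block changed no call. Of the 77 recomputed log2 changes of members, 75 moved by less than 1 SD of the libraries. The others were Gvin1, from 3.18 to 1.86 when summed with Gm4070, and Gbp7, from 1.70 to 2.90 with the smaller pseudocount. Irgm1 was the single member to change sign, without young replicate 2. The median over tested members ranged from 0.48 to 1.77 over left-out libraries and was 0.30 with a minimum mean of 5 FPKM, which fewer members pass. Of 91 recomputed medians of gene lists, 26 moved by more than their SD over left-out libraries. With 3 libraries per group, spread between libraries and not depth limited the larger values. Those of Gbp2, Gbp7 and Mx1 under about 0.1 FPKM rested on few reads.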
